A study of Mus musculus with 24 samples.

Results

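The mismatch repair genes measured here were Msh3, Msh6, Mlh3, Pms1, Pms2 and Exo1, followed across untreated and treated mouse fibroblasts. They were found by their gene names, current or older, in the annotation of the arrays, which listed 12 probes for these 6 genes among 41174 probes and 19505 named genes in all. Each gene is described by its brightest probe over the 24 arrays, and its other probes are given separately. All cells were Ku70-/- mouse embryonic fibroblasts, which lack a subunit of the Ku heterodimer of double-strand break end joining in every group, controls included, and no cells with Ku70 were measured. The first set of 15 arrays held untreated cells, KBrO3-only cells (20 mM for 1 hr, then fresh medium) harvested 4 or 24 hr from the start of that treatment, and co-exposed cells harvested at the same times. Co-exposed cells also received 150 μM bisphenol A (BPA), for 1 hr before KBrO3, during it and until sampling. The second set of 9 arrays held its own untreated cells and BPA-only cells at 150 μM, harvested after 4 or 24 hr. The study's methods give the BPA-only cells 1 hr more in BPA than the labels do. Each group had 3 arrays, described by the study as biological replicates. Labels give 4 hr for untreated cells of the first set and no time for those of the second, so the 24 hr groups have no control labeled with their own time.

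Mismatch repair removes bases that were misinserted, and small loops that were left, when DNA was copied, and it also acts on mispairs opposite oxidized bases. Msh6 and Msh3 belong to the MutS-type proteins that bind the mismatch, Msh6 in the sensor for base mispairs and small loops and Msh3 in the sensor for larger loops. Pms2, Mlh3 and Pms1 belong to the MutL-type proteins that follow. Pms2 and Mlh3 carry the endonuclease that nicks the strand, and Mlh3 is best known for crossover formation in meiosis. Exo1 is the exonuclease that removes the nicked strand, after which the replicative polymerase fills the gap. KBrO3 is an oxidant that leaves oxidized guanine in DNA, and BPA is a plasticizer.

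KBrO3 and co-exposure changed the levels of most of these genes, and the genes did not move as a group. Exo1 rose in all 4 treated groups of the first set. On their main probes Mlh3 and Pms1 fell in KBrO3-only cells at 4 hr, and Msh3 was higher than control at 24 hr but not at 4 hr. A gene is called altered where its limma p, adjusted by the Benjamini-Hochberg method over every probe tested, was below 0.05. On that basis 5 of the 6 genes were altered in KBrO3-only cells at 4 hr, 3 higher and 2 lower, against 72.1% of all probes altered in that comparison (36.3% higher and 35.8% lower). With co-exposure at 4 hr, 4 of the 6 genes were altered, 3 higher and 1 lower, against 78.6% of all probes (41.6% higher and 37% lower). At 24 hr, 5 of the 6 were altered in KBrO3-only cells, 4 higher and 1 lower, against 66.2% of probes (32.1% higher and 34% lower). With co-exposure at 24 hr all 6 were altered on their main probes, against 69.9% of probes, and all 6 were higher, against 32.9% of probes called higher. Of these, Pms1 did not pass on the mean of its probes (0.07, adjusted p = 0.659) and Mlh3 turned sign with normexp (-0.76, adjusted p = 0.134). Msh6 did not pass when the compared groups were fitted alone (adjusted p = 0.0871). The shares of altered genes thus lie near the background of these arrays, in which most probes were altered. Under the stricter criterion of a Bonferroni p below 0.01 with a change beyond 1.5-fold, the counts were 3, 2, 2 and 2 of the 6 genes in the same order, against 28.8%, 32.6%, 16.8% and 20.8% of all probes. With BPA alone limma called 0 of the 6 genes at 4 hr, against 4.24% of all probes, and 0 at 24 hr, against 3.4%. At an unadjusted p below 0.05 the counts were 2 of 6 at each time, against 18.8% and 18.3% of probes.

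**Figure D1:**
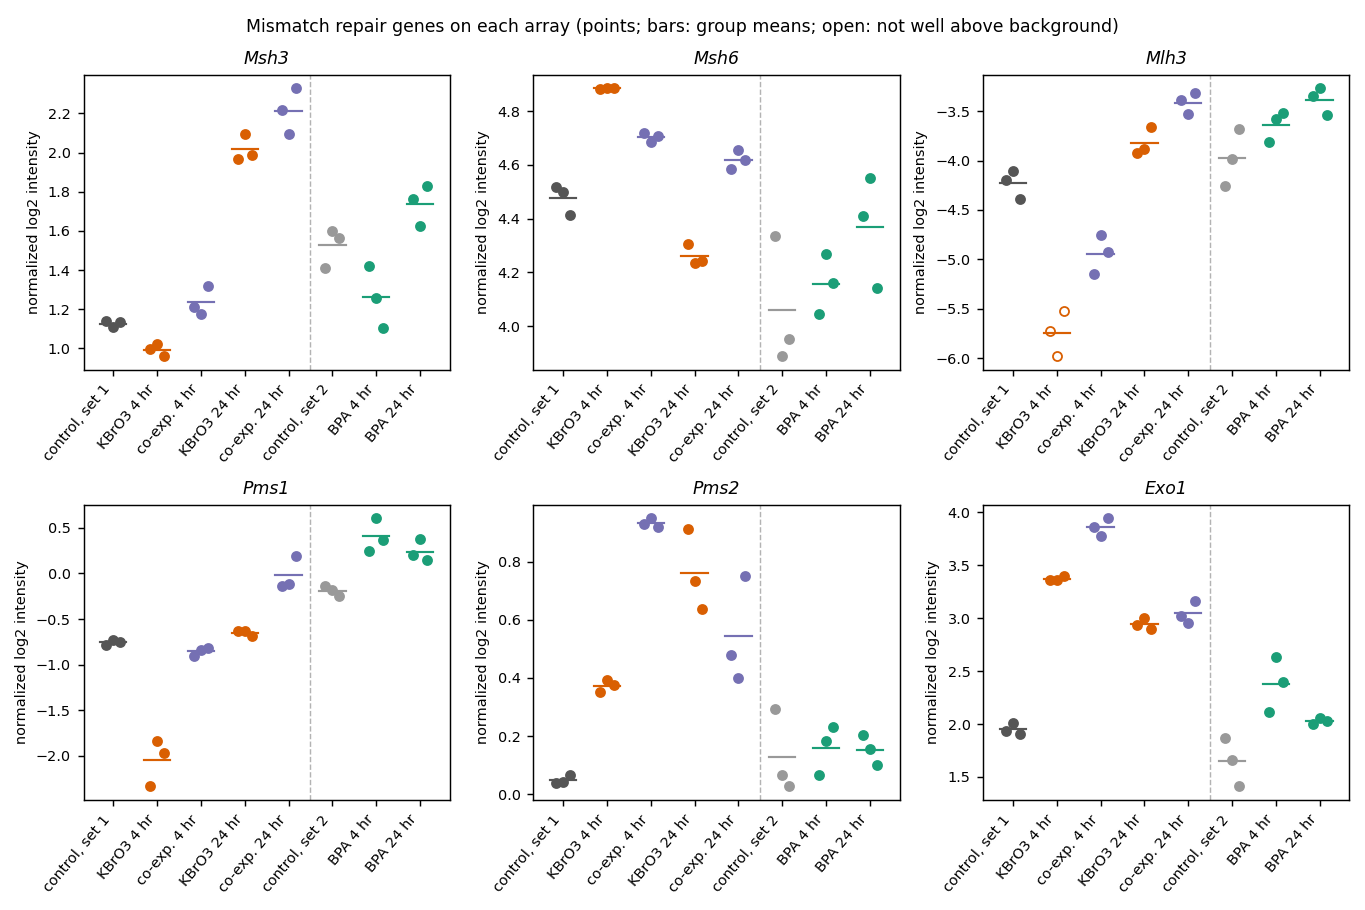
Normalized log2 intensity (log2 signal minus the array's 75th percentile) of each mismatch repair gene on each of the 24 arrays, with 1 panel per gene, points for arrays, bars for group means and a dashed line between the array sets. Exo1 lies between 2.90 and 3.94 in the treated groups of the first set and at 2.01 or below in its controls, while Mlh3 is not well above background (open points) in KBrO3-only cells at 4 hr.

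In both sets, 57.7% to 68.1% and 76.4% to 79.4% of spots were well above background, and the second set was the noisier, with a median residual SD of 0.340 on the log2 scale against 0.107 in the first. The brightest probes of Msh3, Msh6, Pms1, Pms2 and Exo1 were well above background on all 24 arrays, and that of Mlh3 on 21, all but the 3 KBrO3-only arrays at 4 hr. With 3 arrays per group, precision below is limited by their number. In the first set slides and treatments overlapped little. KBrO3-only cells at 4 hr shared a slide with 1 control array, the co-exposed cells at 4 hr with 1 KBrO3-only array at 24 hr, and 2 arrays each of KBrO3-only and co-exposed cells at 24 hr shared another. In the second set each control shared a slide with 1 or 2 BPA arrays. For co-exposure and for KBrO3 at 24 hr against control, and for co-exposure against KBrO3 at 4 hr, slide and treatment cannot be told apart, nor can slide and time for KBrO3 at 24 against 4 hr and for the change of the co-exposure difference between the times. Levels are of bulk RNA, in which fewer cells of a type and less RNA per cell cannot be told apart. The fibroblast marker Col1a1 was well above background in every group. Of 6 haematopoietic markers 3 to 5 were well above background on each array, the leukocyte marker Ptprc on none.

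Exo1 rose more than any other member at 4 hr, and at 24 hr it rose about as much as Msh3. Its normalized log2 intensity was 1.93, 2.01 and 1.91 in the 3 controls of the first set. KBrO3-only cells at 4 hr gave 3.36, 3.36 and 3.40, and co-exposed cells at 4 hr gave 3.86, 3.78 and 3.94. The 3 groups did not overlap. The rise was 2.67-fold with KBrO3 alone (log2 difference 1.42 ± 0.059 SE, limma adjusted p = 3.82e-10) and 3.75-fold with co-exposure (1.91 ± 0.059, adjusted p = 2.26e-11). At 24 hr Exo1 stood at 2.93, 3.00 and 2.90 in KBrO3-only cells and at 3.02, 2.96 and 3.16 in co-exposed cells. These 2 groups overlapped each other and lay above every control, with rises of 1.99-fold (adjusted p = 2.21e-08) and 2.14-fold (adjusted p = 6.54e-09). Within the slide that held KBrO3-only arrays at 4 hr and a control, the log2 difference was 1.46. Exo1 has 1 probe on these arrays, at chr1:175874834-175874893 (mm7, plus strand).

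Exo1 was 0.49 ± 0.059 higher on the log2 scale with co-exposure than with KBrO3 alone at 4 hr (adjusted p = 2.88e-05), and at 24 hr the difference was 0.10 (95% confidence interval -0.029 to 0.23, adjusted p = 0.187). The change of that difference from 4 to 24 hr was -0.39 (adjusted p = 0.00211). With median scaling of the arrays, the 24 hr difference passed (0.27, adjusted p = 0.0300) and the change did not (-0.08, adjusted p = 0.637).

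Msh3 changed most at 24 hr. Its main probe, at chr13:89317416-89317475 (mm7, minus strand), gave 1.14, 1.11 and 1.13 in controls and 1.00, 1.02 and 0.96 in KBrO3-only cells at 4 hr. The 4 hr co-exposed cells gave 1.21, 1.18 and 1.32. Neither 4 hr group passed the test against control, with log2 differences of -0.13 (adjusted p = 0.0652) and 0.11 (adjusted p = 0.117). The KBrO3-only arrays lay below every control, and their difference passed with quantile normalization (-0.22, adjusted p = 0.00782) and when the arrays of the compared groups were fitted alone (-0.13, adjusted p = 0.0126). At 24 hr Msh3 stood at 1.97, 2.09 and 1.99 in KBrO3-only cells and at 2.22, 2.09 and 2.33 in co-exposed cells, above every control and 4 hr array of the set. The rise was 1.85-fold with KBrO3 alone (0.89 ± 0.060, adjusted p = 7.57e-08) and 2.12-fold with co-exposure (1.09 ± 0.060, adjusted p = 8.79e-09).

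Msh3 has 4 probes, and they are shown because they moved together at 24 hr and apart at 4 hr. The first 30 of their 60 bases, read 5′ to 3′, are as follows.
A_52_P54561, the main probe: gtgtaaaggcctcaattttcctaggcagta
A_52_P368008, chr13:89417840-89417899: tgtgcgggatgacaggattcgagtagaaag
A_51_P454166, chr13:89450276-89451966: aatccacacttattggtgaagatgtgaatc
A_52_P491493, chr13:89413290-89413349: gtgggattgtagttggtatagttttaagtc
All are on the minus strand in the mm7 coordinates of the array annotation, and A_51_P454166 spans 1691 bases there, more than the length of a probe. At 24 hr all 4 probes were higher than control in KBrO3-only cells, by 0.50 to 0.91, and in co-exposed cells, by 0.82 to 1.09. At 4 hr A_52_P491493, annotated to a predicted transcript, rose by 0.57 with KBrO3 (adjusted p = 4.72e-05) and by 0.35 with co-exposure (adjusted p = 0.00205), whereas A_51_P454166 fell by 0.57 with co-exposure (adjusted p = 1.64e-04). At 4 hr co-exposure against KBrO3 gave a rise on the main probe, by 0.24 (adjusted p = 0.00485), while the other 3 probes were lower, by -0.13 to -0.38, and 2 of those passed the test. The direction of co-exposure against KBrO3 at 4 hr therefore depends on the probe for Msh3.

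Msh6 changed by small amounts, at most 0.41 on the log2 scale against control. The probe at chr17:86293245-86293304 (mm7, plus strand) gave 4.52, 4.50 and 4.41 in controls and 4.88, 4.89 and 4.89 in KBrO3-only cells at 4 hr, a rise (SE 0.038, adjusted p = 8.16e-07). Co-exposed cells at 4 hr gave 4.72, 4.69 and 4.71. They lay between the other 2 groups, 0.23 above control (adjusted p = 1.47e-04) and 0.18 below KBrO3-only cells (log2 difference -0.18, adjusted p = 0.00172). At 24 hr the order of the 2 treatments had turned. KBrO3-only cells gave 4.31, 4.23 and 4.24, below every control (-0.22, adjusted p = 3.03e-04), and co-exposed cells gave 4.58, 4.65 and 4.62, above every control (0.14, adjusted p = 0.00544). The difference between co-exposed and KBrO3-only cells changed from 4 to 24 hr by 0.54 ± 0.054 (adjusted p = 1.15e-05). Several of these calls depended on the processing. With quantile normalization or with scaling to array medians the 4 hr co-exposure difference (0.04 and 0.09) and the 24 hr KBrO3 difference (-0.07 under both) did not pass the test. With the normexp background correction the differences between co-exposed and KBrO3-only cells at 4 hr (adjusted p = 0.538) and 24 hr (adjusted p = 0.158) and their change (0.59, adjusted p = 0.125) did not pass. The 24 hr KBrO3 difference turned sign with normexp (0.098, adjusted p = 0.578). The 24 hr co-exposure rise did not pass when the arrays of the compared groups were fitted alone (adjusted p = 0.0871). Msh6 has 1 probe.

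Among the MutL-type genes, Pms2 was higher than control in all 4 treated groups. Its main probe, at chr5:142959194-142959253 (mm7, plus strand), gave 0.04, 0.04 and 0.07 in controls. It gave 0.35, 0.39 and 0.37 in KBrO3-only cells at 4 hr (difference 0.32 ± 0.084, adjusted p = 0.00395). Co-exposed cells at 4 hr gave 0.93, 0.95 and 0.92, a rise of 1.84-fold (adjusted p = 8.1e-07). The 3 groups at 4 hr did not overlap. At 24 hr KBrO3-only cells gave 0.91, 0.73 and 0.64 and co-exposed cells 0.48, 0.40 and 0.75, which overlapped each other and lay above every control (differences 0.71, adjusted p = 1.03e-05, and 0.49, adjusted p = 2e-04). At 4 hr co-exposure exceeded KBrO3 alone by 0.56 (adjusted p = 1.5e-04). The same difference at 24 hr was -0.22 (adjusted p = 0.0503), and it passed the test with slide as a random block (-0.23, adjusted p = 0.00282) or a fixed block (-0.25, adjusted p = 0.00107). Its change from 4 to 24 hr was -0.78 ± 0.118 (adjusted p = 2.23e-04), and on the second probe it was -0.28 (adjusted p = 0.117). The other probe, A_52_P496397 at chr5:142941817-142941876, was also higher than control in all 4 groups, by 0.53 to 0.80, but co-exposed and KBrO3-only cells differed there by 0.04 at 4 hr (95% confidence interval -0.18 to 0.27, adjusted p = 0.750).

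On its main probe Pms1 differed strongly between KBrO3 alone and co-exposure. That probe gave -0.79, -0.73 and -0.75 in controls and -2.33, -1.83 and -1.97 in KBrO3-only cells at 4 hr. Pms1 fell by 1.29 on the log2 scale there (SE 0.114, adjusted p = 4.58e-07), and by 1.30 within the slide shared with a control. Co-exposed cells at 4 hr gave -0.91, -0.83 and -0.81, against control a difference of -0.097 (95% confidence interval -0.35 to 0.15, adjusted p = 0.447). Co-exposed cells at 4 hr thus lay above every KBrO3-only array, 2.29-fold higher (1.19 ± 0.114, adjusted p = 4.92e-06), and Pms1 was the only member to pass the stricter criterion in this comparison, which 4.99% of all probes did. At 24 hr KBrO3-only cells gave -0.63, -0.63 and -0.69 (difference from control 0.10, adjusted p = 0.438), and co-exposed cells gave -0.14, -0.11 and 0.19, a rise of 0.74 over control (adjusted p = 9.44e-05) and of 0.63 over KBrO3 alone (adjusted p = 6.87e-04).

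The Pms1 result rests on 1 of the gene's 2 probes, and their first 30 of 60 bases are printed for that reason.
A_52_P235278, the main probe, chr1:53422811-53422870: ccaggaacttcatgattaagcttatgacca
A_51_P277970, chr1:53496810-53496869: aaacttacatgaactaagctcaagagaaag
Both are on the minus strand (mm7). The second probe was also well above background on every array of the first set, and it moved the opposite way, with a difference from control of 0.54 in KBrO3-only cells at 4 hr (adjusted p = 0.0640) and -0.60 in co-exposed cells at 24 hr (adjusted p = 0.0450). Co-exposed cells were lower than KBrO3-only cells at 4 hr on this probe, by -0.67 (adjusted p = 0.0325). Across the 15 arrays of the first set the 2 probes had a Pearson r of -0.793. With the mean of both probes, the 4 hr difference between co-exposed and KBrO3-only cells was 0.26 (adjusted p = 0.115) and the 24 hr co-exposure difference from control 0.07 (adjusted p = 0.659).

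**Figure D2:**
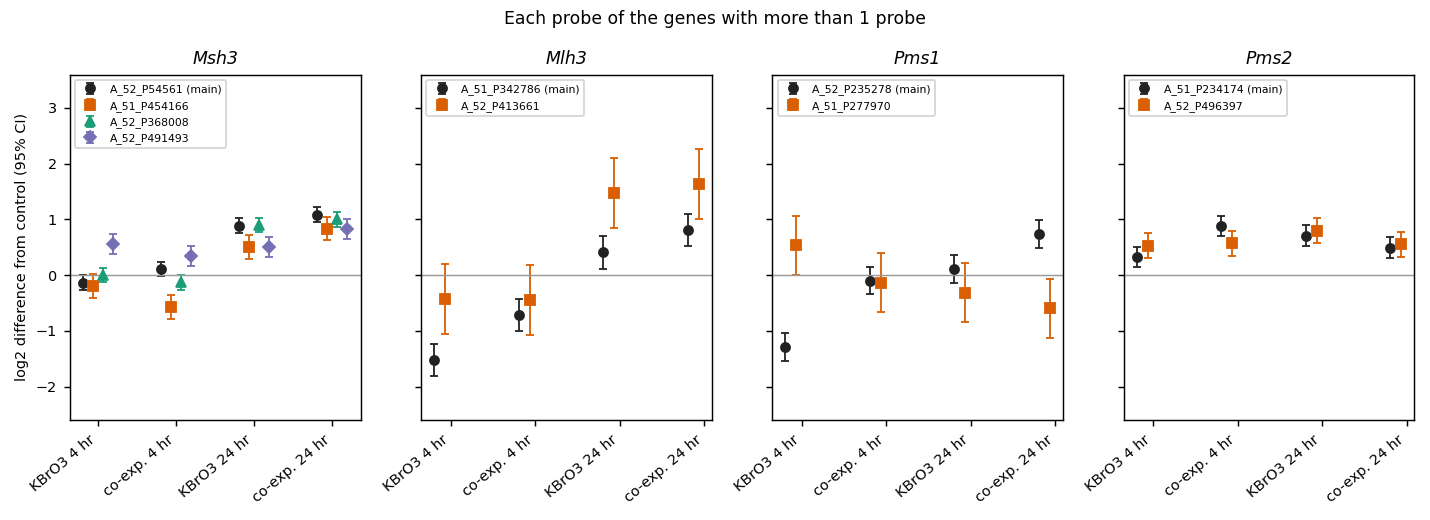
Log2 difference from the controls of the first set, with 95% confidence intervals, for each probe of Msh3, Mlh3, Pms1 and Pms2 in the 4 treated groups; black circles mark the main probe, and values of probes not well above background are shown as measured. The 4 probes of Msh3 and the 2 of Pms2 lie above 0 at 24 hr, while the 2 probes of Pms1 lie on opposite sides of 0 in KBrO3-only cells at 4 hr.

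Mlh3 was measured close to background. The probe at chr12:83235248-83235307 (mm7, minus strand) gave -4.20, -4.11 and -4.38 in controls. In KBrO3-only cells at 4 hr it read -5.73, -5.98 and -5.53 and did not stand well above background on any of the 3, so the fall has only a bound. Mlh3 was at least 2.06-fold lower there than in controls (adjusted p = 4.1e-07), the bound being set against the lowest signal well above background on each array. Co-exposed cells at 4 hr gave -5.15, -4.75 and -4.93, a fall of 0.71 from control on the log2 scale (log2 difference -0.71, adjusted p = 3.22e-04) and at least 1.26-fold higher than KBrO3-only cells (adjusted p = 3.03e-04), a difference that did not pass with normexp (adjusted p = 0.911). At 24 hr Mlh3 lay above every control, at -3.93, -3.88 and -3.66 in KBrO3-only cells (0.41, adjusted p = 0.0165) and -3.39, -3.53 and -3.32 in co-exposed cells (0.82, adjusted p = 1.37e-04). Both 24 hr differences took the other sign with the normexp background correction, at -1.05 (adjusted p = 0.0490) and -0.76 (adjusted p = 0.134). The KBrO3 difference at 24 hr missed the threshold without control replicate 3 (0.33, adjusted p = 0.0679) or KBrO3-only replicate 3 (0.33, adjusted p = 0.0691), and with slide as a random block (0.46, adjusted p = 0.103).

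The second Mlh3 probe, A_52_P413661 at chr12:83268570-83268629, did not reach that level on any control or 4 hr array of the first set. At 24 hr it was at least 1.14-fold higher than control in KBrO3-only cells (adjusted p = 6.27e-04) and at least 1.27-fold higher in co-exposed cells (adjusted p = 2.63e-04). Of the co-exposed arrays at 24 hr, 2 of 3 stood well above background. The probe was tested in this set only because all 3 KBrO3-only arrays at 24 hr did so. The filter thus favoured a rise at 24 hr, and these p-values add no support of their own.

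On the main probes, all 6 genes were altered between co-exposed and KBrO3-only cells at 4 hr. With co-exposure 5 were higher and Msh6 lower, against 57.8% of all probes altered (29.2% higher and 28.6% lower). At 4 hr these groups shared no slide, so an effect of BPA could not be separated from one of slide. Of the 6 other probes of these genes, none was called higher and 3 were lower. With the mean of a gene's probes Msh3 was lower (-0.12, adjusted p = 0.0208), and Mlh3 (adjusted p = 0.0771) and Pms1 (adjusted p = 0.115) did not pass. Msh3 did not pass with arrays scaled to their medians either (adjusted p = 0.413), and with normexp Msh3 (adjusted p = 0.241), Msh6 (adjusted p = 0.538) and Mlh3 (adjusted p = 0.911) did not pass.

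At 24 hr adding BPA altered 4 genes on their main probes, Msh3, Msh6, Mlh3 and Pms1, and these were higher, against 46.7% of probes (23.1% higher and 23.7% lower). The 24 hr differences were 0.20 for Msh3 (adjusted p = 0.0178), 0.36 for Msh6 (adjusted p = 1.09e-05), 0.41 for Mlh3 (adjusted p = 0.0237) and 0.63 for Pms1 (adjusted p = 6.87e-04). Within the slide that held 2 arrays of each group, the same 4 differences were 0.12, 0.38, 0.31 and 0.53, and with slide as a fixed block those of Msh3 (adjusted p = 0.149) and Mlh3 (adjusted p = 0.151) did not pass the test, while Pms2 passed as lower. With slide as a random block Msh3 and Mlh3 still passed. Pms2 also passed as lower in the error-weighted fit (adjusted p = 0.0433), among probes above background on every array (adjusted p = 0.0375), on the mean of its probes (adjusted p = 0.0222) and without replicate 3 of KBrO3-only (adjusted p = 0.0245) or co-exposed cells (adjusted p = 0.0015). With the mean of a gene's probes Mlh3 (adjusted p = 0.212) and Pms1 (adjusted p = 0.307) did not pass. Msh3 did not pass with quantile normalization (adjusted p = 0.0536), with the compared groups fitted alone (adjusted p = 0.121) or with normexp (adjusted p = 0.610), nor did Mlh3 (adjusted p = 0.938) and Msh6 (adjusted p = 0.158) with normexp. Without KBrO3-only replicate 1 the count was 2 genes. The calls of Msh3 or Mlh3 at 24 hr were also lost without any 1 of KBrO3-only replicates 2 (Mlh3 0.38) and 3 (Msh3 0.18) or of co-exposed replicates 1 (Mlh3 0.40) and 3 (Msh3 0.14, Mlh3 0.36). Under the stricter criterion none of the 6 passed at 24 hr, where 5.8% of all probes did.

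The change from 4 to 24 hr in the co-exposure difference was itself altered for 4 of the 6 genes, 1 higher and 3 lower, against 54.3% of all probes (25.5% higher and 28.7% lower). It was positive for Msh6 (0.54) and negative for Exo1 (-0.39), Pms1 (-0.56, adjusted p = 0.0112) and Pms2 (-0.78). The call of Pms1 was lost with slide as a random block (-0.65, adjusted p = 0.0579), with median scaling (-0.25, adjusted p = 0.236), with normexp (-0.41, adjusted p = 0.377) and on the mean of its probes (-0.086, adjusted p = 0.721). Mlh3 has only a bound in KBrO3-only cells at 4 hr, so its change has no measured size. The value of Msh3 on its main probe (-0.04) did not pass the test. The other 3 probes of Msh3 each passed with a positive change, of 0.54 (adjusted p = 0.00232), 0.23 (adjusted p = 0.0369) and 0.71 (adjusted p = 0.00113), as did the mean of its probes (0.36, adjusted p = 2.88e-04). From 4 to 24 hr itself, all 6 genes were altered in KBrO3-only cells, against 75.3% of probes, and 5 of them, all but Msh6, in co-exposed cells, against 81.2%. For Msh6 in co-exposed cells the change was -0.086 (adjusted p = 0.0557). It passed as higher with quantile normalization (0.18, adjusted p = 0.00304) and median scaling (0.37, adjusted p = 4.29e-04), and as lower without co-exposed replicate 2 at 24 hr (-0.10, adjusted p = 0.0424).

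**Figure D3:**
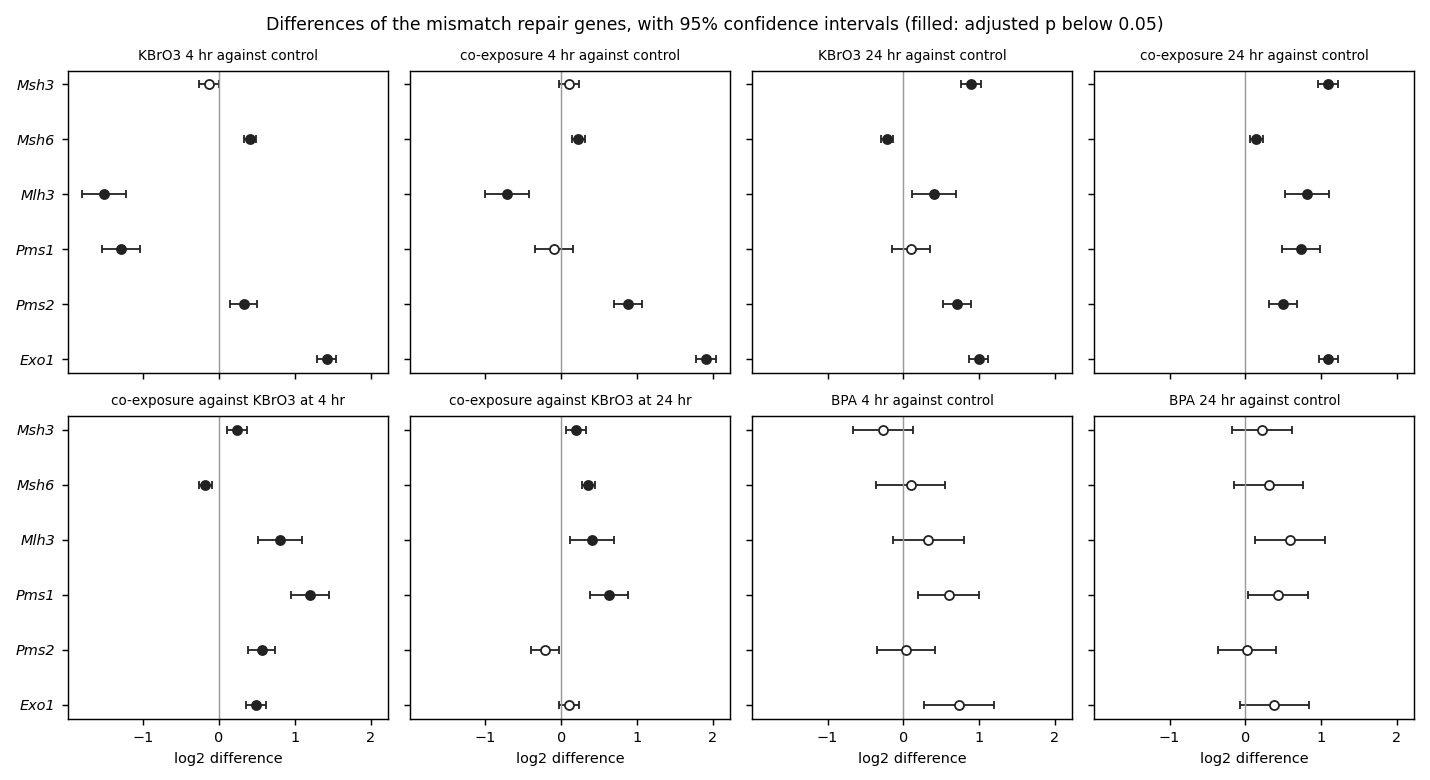
Log2 difference of each mismatch repair gene with its 95% confidence interval in 8 comparisons, filled where the limma adjusted p over all probes was below 0.05. With co-exposure at 24 hr all 6 genes lie to the right of 0, and in the BPA-only comparisons every point is open and the intervals are wider than in the first set.

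BPA alone left all 6 genes below the threshold. Exo1 gave 1.87, 1.66 and 1.41 in the controls of the second set and 2.12, 2.63 and 2.39 with BPA at 4 hr. No BPA array at 4 hr overlapped the controls, and the difference was 0.73 (95% confidence interval 0.27 to 1.19, adjusted p = 0.0851). At 24 hr it gave 2.00, 2.05 and 2.03, again above every control (0.38, adjusted p = 0.364). Pms1 gave -0.14, -0.18 and -0.25 in controls, 0.25, 0.61 and 0.37 with BPA at 4 hr and 0.20, 0.38 and 0.14 at 24 hr. Both BPA groups lay above every control, with differences of 0.60 (adjusted p = 0.104) and 0.43 (adjusted p = 0.244). The second Pms1 probe overlapped the controls at both times, with differences of -0.36 (adjusted p = 0.487) and 0.50 (adjusted p = 0.331). Mlh3 at 24 hr also lay above every control (0.59, 95% confidence interval 0.12 to 1.05, adjusted p = 0.173), with control values of -4.25, -3.98 and -3.68 and BPA values of -3.35, -3.27 and -3.54. With normexp it was -0.34 (adjusted p = 0.775). The second Mlh3 probe gave -0.088 (adjusted p = 0.969), but stood well above background on only 1 of 3 arrays in each of these 2 groups. For Msh3, Msh6 and Pms2 the differences from control lay between -0.27 and 0.31 at both times. Within the 2 slides that each held 1 control and 1 BPA array of 24 hr, the differences ran from 0.061 to 0.64. The share of all probes that were higher in these pairs of single arrays was not counted. With slide as a fixed block limma called 0 of 31810 probes for BPA at 24 hr. Within the slide that held a control and 2 BPA arrays of 4 hr, Msh3, Msh6 and Pms2 were lower (-0.15 to -0.23) and Mlh3, Pms1 and Exo1 higher (0.39 to 0.59). The rise of Exo1 with KBrO3 alone lay above the interval for BPA at both times, at 1.42 against 0.27 to 1.19 at 4 hr and at 0.99 against -0.077 to 0.84 at 24 hr, in array sets that were normalized and fitted separately.

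Pms1 and Pms2 each start next to another coding gene, and those neighbours were compared after the values of the 6 genes had been seen. The rule took protein-coding genes of the RefSeq annotation (GRCm38.p6) with an end within 500 bases of a member's start and no overlap with the member. A stretch of 63 bases separates Pms1 from Ormdl1 and 61 bases separate Pms2 from Aimp2. Ormdl1 encodes a regulator of sphingolipid synthesis and Aimp2 a scaffold of the aminoacyl-tRNA synthetase complex. Pms1 and Ormdl1, and Pms2 and Aimp2, are read in opposite directions from the stretch between them. The stretches are shown because each pair of genes shares it.
Between Ormdl1 and Pms1, chr1:53297032-53297094, GRCm38.p6, minus strand: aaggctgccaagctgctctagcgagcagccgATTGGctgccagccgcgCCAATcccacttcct
Between Aimp2 and Pms2, chr5:143909840-143909900, GRCm38.p6, plus strand: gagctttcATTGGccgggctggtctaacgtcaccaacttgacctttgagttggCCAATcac
The capitals mark the letters CCAAT or, on the other strand, ATTGG. Of the 27025 genes with a RefSeq window of 250 bases before the start, 34.5% held CCAAT on either strand. Of the 5 members with such a window, Msh6, Mlh3, Pms1 and Pms2 held CCAAT.

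The main probe of Pms1 and Ormdl1 moved alike with KBrO3 alone and differently with co-exposure at 4 hr. Ormdl1 gave 0.41, 0.51 and 0.40 in controls and -0.81, -0.88 and -0.82 in KBrO3-only cells at 4 hr, and fell by 1.28 (adjusted p = 1.74e-09), where Pms1 fell by 1.29. Co-exposed cells at 4 hr gave -0.78, -0.91 and -0.73 for Ormdl1, a fall of 1.25 from control (log2 difference -1.25, adjusted p = 1.8e-09) that overlapped the KBrO3-only arrays. Pms1 on its main probe differed from control there by -0.097. At 24 hr Ormdl1 rose by 0.16 with KBrO3 (adjusted p = 0.0357) and by 0.64 with co-exposure (adjusted p = 1.62e-06), beside 0.10 and 0.74 for Pms1. The r over 15 arrays was 0.791 for the main probe of Pms1. The second Pms1 probe differed from control by 0.54 with KBrO3 at 4 hr and by -0.32 at 24 hr, both opposite in sign to Ormdl1 and neither past the test, and the second probe of Ormdl1 was not well above background in any group.

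Aimp2, like Pms2, was higher than control in all 4 treated groups, by 0.87, 0.73, 0.94 and 0.81 for KBrO3 and co-exposure at 4 hr and then at 24 hr, where Pms2 rose by 0.32, 0.88, 0.71 and 0.49. Co-exposure against KBrO3 at 4 hr was negative for Aimp2 (-0.14, adjusted p = 0.00559) and positive for Pms2 (0.56). Their r over 15 arrays was 0.702. These correlations share their arrays and the large differences between groups, and are given as descriptions.

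**Figure D4:**
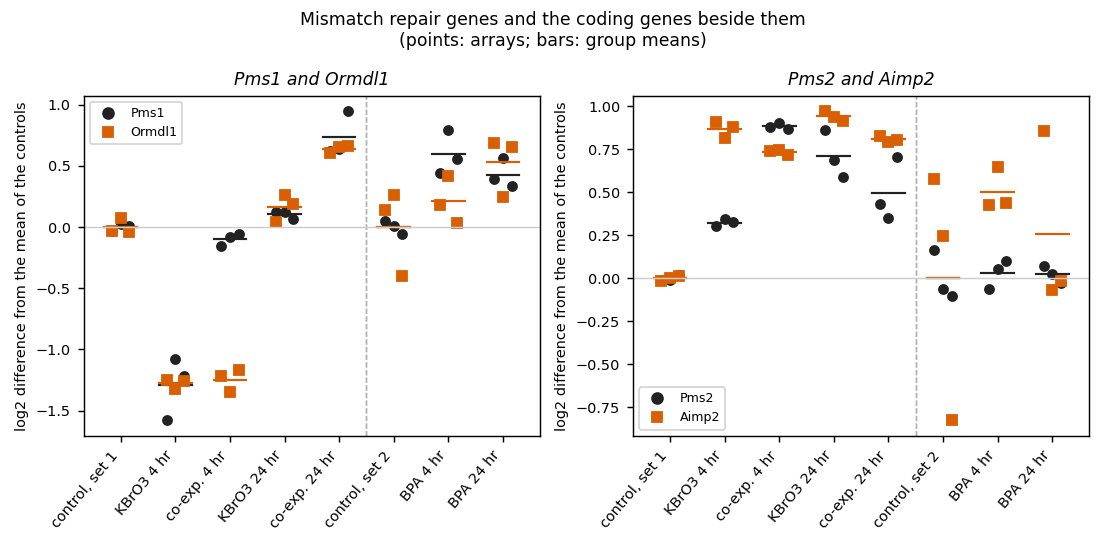
Log2 difference of each array from the mean of the controls of its set, for Pms1 and Pms2 (black circles) and for the coding genes that start next to them, Ormdl1 and Aimp2 (orange squares), with bars for group means. In co-exposed cells at 4 hr Ormdl1 lies 1.25 below its controls (-1.25) while Pms1 does not.

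The factors that work with excision and after it were followed as a list of 15 genes for the clamp, clamp loader, single-strand binding protein, polymerase δ and ligase, together with the DNA-binding chromatin protein Hmgb1. With KBrO3 at 4 hr 5 of the 15 rose and 8 fell, where 36.3% of all probes rose and 35.8% fell, with a median log2 difference of -0.13 against 0.06 over all probes. With co-exposure at 4 hr 6 rose and 7 fell, beside 41.6% and 37% of all probes (median -0.18 against 0.08). At 24 hr 7 rose and 3 fell with KBrO3, beside 32.1% and 34% (median 0.13 against -0.02), and 10 rose and 2 fell with co-exposure, beside 32.9% and 37% (median 0.35 against -0.07). With BPA alone limma called 0 of the 15 at 4 and at 24 hr, with 2 and 0 at an unadjusted p below 0.05, where 18.8% and 18.3% of all probes stood. Pcna, the sliding clamp, rose by 1.03 with KBrO3 at 4 hr (adjusted p = 6.73e-10) and by 1.10 with co-exposure (adjusted p = 2.95e-10), and by 0.16 (adjusted p = 0.00696) and 0.35 (adjusted p = 2.06e-05) at 24 hr. Rpa2, a subunit of the single-strand binding protein, rose by 1.01 with KBrO3 at 4 hr (adjusted p = 3.05e-08). Rfc2, of the clamp loader, fell by 0.93 (adjusted p = 4.69e-08) and, with co-exposure, by 1.01 (adjusted p = 1.81e-08). Lig1, the ligase that seals the replicated strand, fell by 0.27 with KBrO3 at 4 hr (adjusted p = 5.36e-04) and by 0.78 with co-exposure (adjusted p = 2.99e-08). Its differences at 24 hr, -0.08 and -0.01, did not pass the test.

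Pold3, an accessory subunit of polymerase δ, fell by 0.92 with co-exposure at 4 hr (adjusted p = 4.32e-08) and by 0.52 with KBrO3 at 24 hr (adjusted p = 1.67e-05). Pold2 rose at 24 hr, by 0.62 with KBrO3 (adjusted p = 9.15e-07) and by 0.96 with co-exposure (adjusted p = 1.31e-08), as did Rfc3 with KBrO3 (0.66, adjusted p = 1.79e-05). Exo1 and Pcna thus rose in all 4 treated groups while subunits of 1 complex moved in both directions.

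Of 5 further genes tied to mismatch repair, Msh4, a MutS-type protein of meiosis, stayed below the level called well above background on all 24 arrays. Its meiotic partner Msh5 gave -4.61, -4.47 and -4.40 in controls. It was not well above background in KBrO3-only cells at 4 hr and co-exposed cells at 24 hr, and was at least 1.72-fold and 1.69-fold lower than control there (adjusted p = 1.68e-07 and 4.14e-05). With co-exposure at 4 hr and KBrO3 at 24 hr, where 2 of 3 arrays each measured it, the differences were -0.31 (adjusted p = 0.0196) and -0.36 (adjusted p = 0.0120). In the first set Msh5 was tested only because all 3 controls stood well above background. The filter thus favoured falls from control, and these p-values add no support of their own. With BPA at 4 hr Msh5 gave -3.56, -3.32 and -3.35 against -4.26, -4.12 and -4.64 in the controls of the second set, a rise of 1.91-fold (0.93 ± 0.196, adjusted p = 0.0319), and at 24 hr the difference was -0.54 (adjusted p = 0.184). Mcm9, a helicase that works with mismatch repair, rose by 1.31 with co-exposure at 4 hr (adjusted p = 1.41e-05). Mcm8, its partner, rose by 0.92 with co-exposure at 24 hr (adjusted p = 1.04e-09). Setd2, the methyltransferase whose histone mark recruits Msh6, rose at 4 hr, by 0.50 with KBrO3 (adjusted p = 9.87e-06) and 0.29 with co-exposure (adjusted p = 9.24e-04), and fell at 24 hr, by 0.63 with KBrO3 (adjusted p = 1.82e-06) and 0.57 with co-exposure (adjusted p = 3.99e-06).

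Genes of the cell cycle and of cell types moved in the same arrays, and their part in the values above was not tested. Of 38 genes of DNA replication and S phase, 20 rose and 11 fell with KBrO3 at 4 hr and 17 rose and 13 fell with co-exposure. At 24 hr 26 rose and 5 fell with KBrO3, and 29 rose and 2 fell with co-exposure. The shares of all probes that rose and fell were 36.3% and 35.8% with KBrO3 at 4 hr, 41.6% and 37% with co-exposure at 4 hr, 32.1% and 34% with KBrO3 at 24 hr and 32.9% and 37% with co-exposure at 24 hr, and these stand beside the counts of the mitosis genes and fibroblast markers too. Mcm2, a subunit of the replicative helicase, rose in all 4 groups, by 0.63, 1.04, 0.61 and 0.67 in the same order. Of 24 genes of mitosis, none rose and 22 fell with KBrO3 at 4 hr, and 23 fell with co-exposure. At 24 hr 23 rose with KBrO3, whereas 8 rose and 11 fell with co-exposure. Mki67, a marker of cycling cells, followed that list at -0.27, -0.96, 0.59 and -0.32, all past the test. From 4 to 24 hr all 24 mitosis genes rose in KBrO3-only and in co-exposed cells, where 75.3% and 81.2% of all probes were altered in either direction. Of the 38 S phase genes, 19 rose and 14 fell with KBrO3 between these times, and 22 rose and 13 fell with co-exposure. With BPA alone limma called 0 genes of either list at 4 and 24 hr. At an unadjusted p below 0.05 the counts were 2 and 3 of the 38 S phase genes and 14 and 13 of the 24 mitosis genes, whose median log2 differences were -0.52 and -0.55, against 18.8% and 18.3% of all probes.

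Of 11 fibroblast markers, 5 fell and 1 rose with KBrO3 at 4 hr, 10 fell and 1 rose with co-exposure at 4 hr, and all 11 fell in both groups at 24 hr. Their summed level on the log2 scale was 10.86 to 10.94 in controls of the first set and 8.96 to 9.18 in co-exposed cells at 24 hr. Col1a1, of type I collagen, fell by 1.15 and 1.63 in the 2 groups at 24 hr. The summed level of 6 haematopoietic markers was -1.93 to -1.55 in controls and -0.35 to -0.16 in KBrO3-only cells at 4 hr. It was also above every control in the other treated groups of the first set, at -0.61 to -0.59 with co-exposure at 4 hr, -1.32 to -1.06 with KBrO3 at 24 hr and -0.95 to -0.78 with co-exposure at 24 hr. On each of the 24 arrays 3 to 5 of the 6 were well above background, whereas the defining leukocyte gene Ptprc did not stand well above background on any of the 24 arrays. That of 6 epithelial markers was -2.37 to -1.96 in controls and -2.77 to -1.45 over the treated groups, and that of 5 endothelial markers was -3.18 to -2.73 and -3.43 to -2.18.

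Over the 15 arrays of the first set, the genes whose patterns were most like a member's among 14515 genes were, for Exo1, Ripk1 (Pearson r 0.994), Pphln1 (0.994) and Thoc2l (0.993). For Msh3 they were Mtch2 (0.991), Tmem199 (0.989) and Chd1l (0.988), and for Msh6 Itpa (0.977), Impdh1 (0.972) and Rpl23 (0.971). For Mlh3 they were Stard6 (0.985), Iars2 (0.985) and Fra10ac1 (0.984), and for Pms1 Zmym6 (0.984), Serac1 (0.984) and Dtd2 (0.983). For Pms2 they were Set (0.987), Cnot9 (0.980) and Lig4 (0.976), the ligase of end joining. Among the members themselves r ran from -0.72 between Msh6 and Mlh3 to 0.91 between Mlh3 and Pms1. These values describe group patterns over 5 groups that share 1 set of controls.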

How the data were processed

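The authors deposited, for each spot of 1-color Agilent arrays, Feature Extraction intensity values (version 9.5.3.1 in the first set and 12.0.0.7 in the second), with no normalization between arrays. The table of values deposited with the series holds the same intensities. Processed signals were taken to log2, each array's 75th percentile was subtracted, outlier spots were left out and spots of 1 probe averaged. Coordinates of probes are those of the array annotation (mm7). Genes were assigned to probes by RefSeq accession, symbol or synonym.

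Testing took, in each set, those probes that all 3 arrays of some group showed well above background. Each set was fitted with limma 3.58.1 (lmFit, eBayes) in R 4.3.3 (version 1.17.8 of data.table), with two-sided p-values adjusted over 27309 and 31810 probes. Scanner output was parsed in Python 3.11.15 (numpy 2.4.6, pandas 2.3.3). The code was tested on simulated data. Alternatives were other normalizations, normexp background correction (on mean spot signals in the first set and median spot signals in the second), filters, slide and replicate blocks, weights, probes, thresholds and left-out arrays.

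Members and gene lists were chosen with earlier results of these data known. Named genes are all members, and of the factors of excision and later steps and the linked genes those with the 2 largest rises and 2 largest falls against control, plus Pcna, Lig1, Msh4 and Msh5. Mki67, Mcm2, Col1a1 and Ptprc stand for their lists. Neighbouring genes and the sequence word were chosen after the values were seen.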

Additional observations from a re-analysis of the deposited data

Results flagged for a closer look

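Several genes differed between the sampling times beyond the spread between arrays, by the limma test of the difference itself. From 4 to 24 hr in KBrO3-only cells the log2 level on the main probes changed by 1.40 for Pms1, 1.02 for Msh3, 0.39 for Pms2, -0.43 for Exo1 and -0.63 for Msh6. Mlh3, not well above background at 4 hr, was at least 2.73-fold higher at 24 hr. All 6 passed the test, 4 higher and 2 lower, against 75.3% of all probes. In co-exposed cells the changes were 1.53 for Mlh3, 0.98 for Msh3, 0.83 for Pms1, -0.39 for Pms2 and -0.81 for Exo1. These 5 passed, against 81.2% of all probes, and Pms2 had the opposite sign with arrays scaled to their medians and gave -0.014 (adjusted p = 0.902) on its second probe. The changes of Pms1 did not pass on the mean of its probes (0.27, adjusted p = 0.0853, with KBrO3 and 0.18, adjusted p = 0.218, with co-exposure). The second Pms1 probe gave a change of the opposite sign with KBrO3 (-0.85, adjusted p = 0.00684). Those of Mlh3 did not pass with normexp (adjusted p = 0.531 and 0.446), nor that of Exo1 with KBrO3 after quantile normalization (-0.12, adjusted p = 0.126). Slide and time cannot be told apart for KBrO3 at 24 against 4 hr.

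The difference between co-exposed and KBrO3-only cells changed from 4 to 24 hr by 0.54 for Msh6, -0.39 for Exo1, -0.56 for Pms1 and -0.78 for Pms2, all on main probes. On the second Pms2 probe the value was -0.28 (adjusted p = 0.117). The Pms1 value did not pass with slide as a random block (-0.65, adjusted p = 0.0579) or on the mean of its probes (-0.086, adjusted p = 0.721). With normexp Msh6 (0.59, adjusted p = 0.125) and Exo1 (-0.44, adjusted p = 0.149) did not pass, nor did Exo1 with median scaling (-0.08, adjusted p = 0.637). Slide and time cannot be told apart in this comparison. Msh6 was lower with co-exposure at 4 hr and higher at 24 hr.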

How the results depend on the processing

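With arrays scaled to their medians, the median of all probes moved by 0.32 for co-exposure at 24 hr against control and by 0.46 for co-exposure at 24 against 4 hr, and with normexp by -0.45 to -0.53 in the 4 comparisons of the first set with control. In co-exposed cells at 24 hr, 47.1% of altered probes were higher in the analysis as reported, 68.2% with median scaling and 29.8% with normexp. With median scaling the change of the co-exposure difference between times was altered for 2 genes. With normexp it was altered for 1 gene, co-exposure against KBrO3 altered 3 at 4 hr and 1 at 24 hr. Under the stricter threshold the counts were 3 (KBrO3 4 hr), 2 (co-exposure 4 hr), 2 (KBrO3 24 hr), 2 (co-exposure 24 hr), 1 and 0 (co-exposure against KBrO3 at 4 and 24 hr), 0 (the change of that difference) and 3 (co-exposure at 24 against 4 hr). Leaving out 1 array gave 2 to 4 genes for co-exposure against KBrO3 at 24 hr.

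Signs turned as follows, for log2 differences. With quantile normalization Msh6 gave 0.18 for co-exposure at 24 against 4 hr and -0.015 for BPA at 4 hr. With median scaling Msh3 gave -0.034 for co-exposure at 4 hr and 0.27 for the change of the co-exposure difference. For co-exposure at 24 against 4 hr, Msh6 gave 0.37 and Pms2 0.071, and Pms2 gave 0.11 for BPA at 24 against 4 hr. With normexp Msh3 gave 0.026 for KBrO3 at 4 hr. For KBrO3 at 24 hr, Msh6 gave 0.098, Mlh3 -1.05 and Pms1 -0.11. Mlh3 gave -0.76 for co-exposure at 24 hr, 0.065 for the change of the co-exposure difference, -0.34 for BPA at 24 hr and -0.46 for BPA at 24 against 4 hr. The 0.065 was computed from KBrO3-only signals at 4 hr that were not well above background, so it is not a measured size. Msh6 gave 0.013 for co-exposure at 24 against 4 hr and -0.046 for BPA at 4 hr, and Pms2 0.039 for BPA at 24 against 4 hr.

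With slide as a random block Pms2 gave 0.011 for BPA at 24 against 4 hr. With slide as a fixed block Msh6 gave -0.23 and Pms2 -0.15 for BPA at 4 hr, and for BPA at 24 against 4 hr Mlh3 gave -0.066, Pms1 0.052, Pms2 0.28 and Exo1 0.11. With the mean of a gene's probes Msh3 gave 0.060 for KBrO3 at 4 hr, -0.062 for co-exposure at 4 hr, -0.12 for co-exposure against KBrO3 at 4 hr, 0.36 for the change of that difference and -0.015 for BPA at 24 hr. Pms1 gave -0.11 for KBrO3 at 24 hr and 0.34 for BPA at 24 against 4 hr, Pms2 -0.26 for BPA at 24 hr and Mlh3 -0.50 for BPA at 24 against 4 hr. When 1 array was left out, the change of the co-exposure difference for Msh3 ran from -0.10 to 0.016, and Pms2 ran from -0.021 to 0.11 for BPA at 4 hr, -0.029 to 0.10 for BPA at 24 hr and -0.054 to 0.027 for BPA at 24 against 4 hr. The cause was not tested.

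Replicate numbers did not pair arrays (mean correlation of residuals -0.029 and 0.0020), and with the replicate block KBrO3 at 4 hr still altered 5 genes and co-exposure at 24 hr 6, with no call changed. Over all alternatives and left-out arrays, 1187 values kept their direction and side of the threshold, 43 fell below it, 13 passed it and 44 turned sign. The 1187 include 72 values from the deposited table, which holds the same intensities, so none of them could change. They also include 72 from the fit without the filter on dim probes, where no direction could change. Signal over background limits Mlh3, and 3 arrays per group limit all values, most in the noisier second set.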
